A study of Mus musculus with 9 samples.

Results

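Interleukin-10 and the components that carry its signal were followed at the RNA level in colonic macrophages of mice labelled as knockouts of a subunit of the phagocyte NADPH oxidase. The set held 9 genes of the 42454 in the deposited table, found by symbol: the ligand Il10, the receptor chains Il10ra and Il10rb, the kinases Jak1 and Tyk2, the transcription factor Stat3, and 3 genes known to respond to the signal, Socs3, Nfil3 and Il4ra. All 9 were in the table and all 9 passed the filter on low values. The cells were macrophages with low Ly6C and with MHC class II, sorted from the colonic lamina propria of mice aged 6 weeks. The groups were WT, p47phox-/- and gp91phox-/-, with 3 RNA libraries each. The labels name no treatment, no allele, no background strain and no sex, and they do not say whether a library came from 1 animal or from a pool. Nor do they say that the libraries of a group came from separate animals, so the p-values below measure the spread between these libraries, which may be technical. p47phox, encoded by Ncf1, and gp91phox, encoded by Cybb, are the organizing subunit and the catalytic subunit of the oxidase that makes superoxide in phagocytes. The labels do not limit either genotype to macrophages.

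IL-10 is a cytokine that macrophages and lymphocytes secrete and that macrophages also sense. It binds a receptor of IL-10Rα, which is the chain specific for IL-10, and IL-10Rβ, which is shared with IL-22 and the type III interferons. JAK1 sits on the first chain and TYK2 on the second, and together they phosphorylate STAT3, which enters the nucleus. Among the genes that STAT3 switches on in macrophages are Socs3, whose protein blocks signalling through gp130 receptors but spares the IL-10 receptor, Nfil3, a repressor that acts on Il12b, and Il4ra, the signalling chain of the IL-4 and IL-13 receptors. In the gut, loss of the IL-10 receptor on macrophages is known to give spontaneous inflammation. RNA levels do not show phosphorylation of STAT3, which was not measured.

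Across the series, the 9 libraries held 31141107 to 52797368 recovered reads. The lowest read count behind any value of the 9 genes was 2278. Every library listed at 0 all 1362 genes of chromosome X, all 190 of Y and all 24 of the mitochondrial DNA. Cybb lies on X and was among them, so the label gp91phox-/- could not be checked in these data. Ncf1 was at 8990 to 10815 normalized counts in the WT libraries, 2718 to 3733 in the p47phox-/- libraries and 12136 to 13618 in the gp91phox-/- libraries, so its RNA was still present in p47phox-/-. Replicates 2 and 3 of p47phox-/- stood apart, with reads on 14323 and 14268 genes against 15825 to 18760 in the other 7 libraries. The macrophage markers were present throughout, with all 13 tested and summed levels of 568707 to 761504 normalized counts in WT, 662855 to 835174 in p47phox-/- and 721381 to 870812 in gp91phox-/-. Single markers differed more than the sum. Cx3cr1 stood at 4060 to 5542 in WT, 598, 5056 and 899 in p47phox-/- and 14746 to 24878 in gp91phox-/-. Between the knockouts, 3 of the 13 passed in limma as higher in gp91phox-/- and 1 as lower, where 9.93% of all genes passed. Only the Cx3cr1 call held with each library left out in turn. Neutrophil markers summed to no more than 52.8 in any library. The B and plasma cell markers, in contrast, summed to 38366 to 68864 in WT, 36685 to 46170 in p47phox-/- and 13584 to 15657 in gp91phox-/-.

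**Figure D1:**
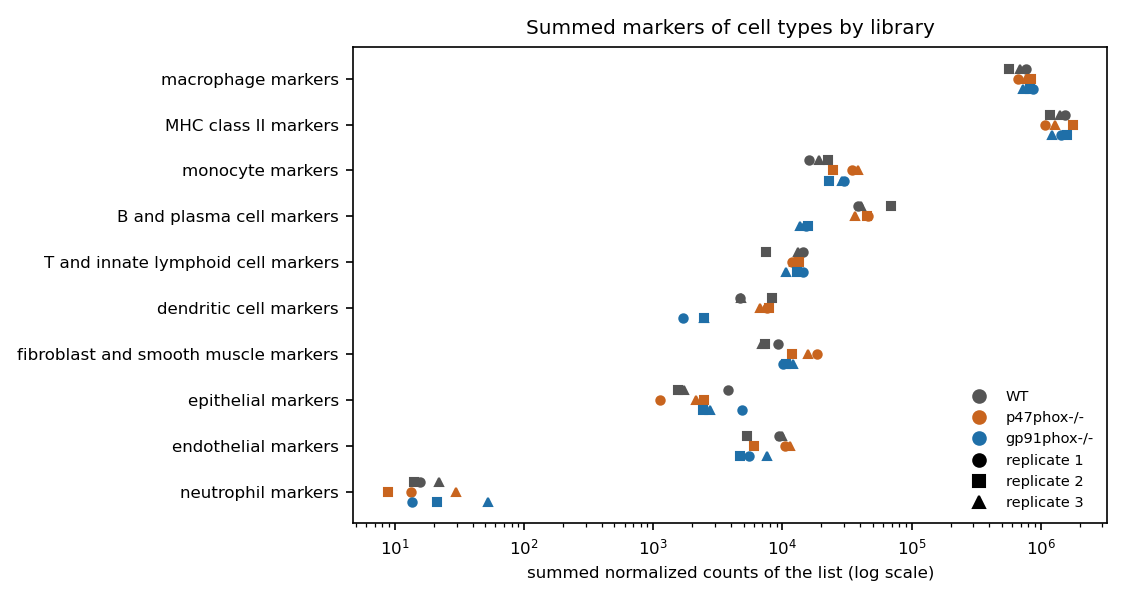
Summed normalized counts (log axis) of each cell type's marker list in the 9 libraries, with colour for genotype and symbol for replicate number. The gp91phox-/- libraries sit below all others for the B and plasma cell list (13584 to 15657) and for the dendritic cell list (1700 to 2467).

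The upstream sequences of 6 of the 9 genes were matched by symbol in the RefSeq promoter table of GRCm38.p6, and 2 are shown, Socs3 because it alone held the STAT site and Nfil3 because it differed between the knockouts (below). Il10, Il10ra and Il10rb had no entry. The 250 bases before each start were searched on both strands for TTCNNNGAA (the STAT site), TGACG (part of the cyclic AMP response element), GGGCGG (the GC box) and TGCTGA (part of the MAF site), and neighbouring matches can overlap. Of the 32851 promoters in the table, 7.02% held TTCNNNGAA, 17.8% TGACG, 32.7% GGGCGG and 16.1% TGCTGA. Only Socs3 among the 6 genes held TTCNNNGAA, in the form TTCTTAGAA, 154 bases before the start. The Nfil3 window held GGGCGG 9 times on the 2 strands and TGACG once, on the opposite strand, where 1 GC box shares a base with it. The bases shown overlap no annotated exon of these genes, run 5′ to 3′ on the gene's own strand, and carry the matches in capitals. The Socs3 stretch is chr11:117969452-117969616 on the minus strand, inside an intron of a longer annotated transcript, and the Nfil3 stretch is chr13:52981074-52981289 on the minus strand.
Socs3: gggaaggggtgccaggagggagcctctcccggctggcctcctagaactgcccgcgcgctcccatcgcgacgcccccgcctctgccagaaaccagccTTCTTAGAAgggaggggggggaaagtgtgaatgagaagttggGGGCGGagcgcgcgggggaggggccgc
Nfil3: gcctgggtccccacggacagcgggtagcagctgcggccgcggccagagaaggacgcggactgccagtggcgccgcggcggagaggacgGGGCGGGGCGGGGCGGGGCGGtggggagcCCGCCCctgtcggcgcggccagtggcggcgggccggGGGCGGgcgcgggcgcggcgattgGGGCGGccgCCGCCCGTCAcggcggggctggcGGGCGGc
A match describes the letters only, and binding was not measured.

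The ligand gave the clearest difference of the set. Il10 (chromosome 1, 131019845 to 131024974, plus strand, GRCm38) stood at 4972, 4028 and 4232 normalized counts in WT replicates 1 to 3, at 9991, 9658 and 8883 in p47phox-/-, and at 9056, 13595 and 11497 in gp91phox-/-. Every knockout library lay above every WT library, and the gp91phox-/- libraries were the most spread, with replicate 1 within the range of p47phox-/-. The means were 4411 ± 497 (SD, n = 3), 9511 ± 569 and 11383 ± 2271. Il10 rose in p47phox-/- by 1.11 on the log2 scale (SE 0.15, 95% interval 0.78 to 1.45, 2.16-fold, limma adjusted p = 0.00653). It rose in gp91phox-/- by 1.35 (SE 0.15, 1.02 to 1.69, 2.56-fold, limma adjusted p = 0.000216). The 2 knockouts were not told apart, with a log2 difference of 0.24 (-0.09 to 0.58, limma adjusted p = 0.353). The gp91phox-/- call held under all 23 alternatives. The p47phox-/- call was lost with p47phox-/- replicates 2 and 3 both left out (1.19, adjusted p = 0.109) and without the mean-variance trend (adjusted p = 0.0610), and it held with each single library left out.

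In each of the 3 comparisons, 1 of the 9 genes passed an adjusted p of 0.05. Over all 14404 genes tested, 1.12% passed in p47phox-/- versus WT (0.625% higher and 0.5% lower), 7.05% in gp91phox-/- versus WT (2.53% higher and 4.53% lower) and 9.93% in gp91phox-/- versus p47phox-/- (3.97% higher and 5.96% lower). The median log2 difference of the 9 genes was -0.02, 0.19 and 0.18 in that order, beside medians over all genes of -0.02, 0.01 and 0.02. By position alone, 4 of the 9 had no overlap between p47phox-/- and WT libraries, 3 between gp91phox-/- and WT and 3 between the knockouts, where 17.7%, 33.3% and 30.9% of all genes had none.

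**Figure D2:**
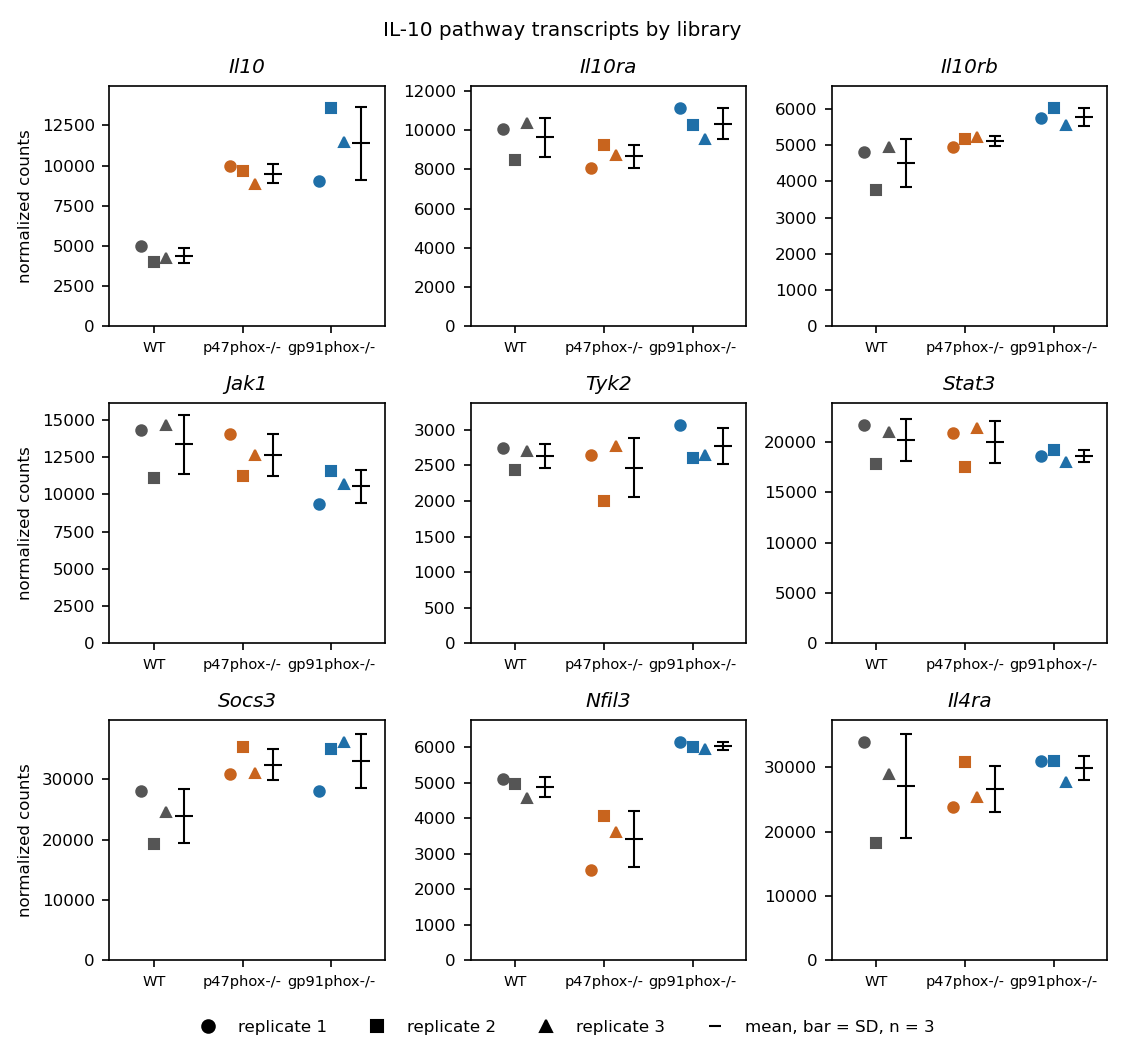
Normalized counts of the 9 genes in each library, with symbols for replicate number and a bar for the mean and SD (n = 3) of each genotype. Il10 lies above WT in all 6 knockout libraries, Nfil3 is lowest in p47phox-/- and highest in gp91phox-/-, and WT replicate 2 is the lowest WT library in every panel but that of Nfil3.

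In limma, no receptor chain passed in any comparison. Il10ra (chromosome 9, 45253837 to 45269149, minus strand), which binds IL-10, stood at 10082, 8496 and 10348 normalized counts in WT, 8058, 9234 and 8718 in p47phox-/- and 11137, 10262.5 and 9564 in gp91phox-/-. Both knockouts overlapped WT, while the gp91phox-/- libraries all lay above the p47phox-/- libraries. The log2 differences were -0.15 (-0.42 to 0.12, limma adjusted p = 0.602) for p47phox-/- and 0.10 (-0.17 to 0.37, adjusted p = 0.707) for gp91phox-/- versus WT, and 0.25 (-0.02 to 0.52, adjusted p = 0.231) between the knockouts. Il10rb (chromosome 16, 91406164 to 91425834, plus strand), the shared chain, stood at 4810, 3751 and 4949 in WT, 4951, 5169 and 5214 in p47phox-/- and 5751, 6029 and 5546 in gp91phox-/-. The 3 genotypes did not overlap and ran in the order WT, p47phox-/-, gp91phox-/-, although p47phox-/- replicate 1 exceeded WT replicate 3 by little. The difference of gp91phox-/- from WT was 0.37 (0.09 to 0.65) and did not pass in limma (adjusted p = 0.112), but passed with array weights (adjusted p = 0.0426) and in DESeq2 (adjusted p = 0.0441). For p47phox-/- versus WT it was 0.19 (-0.09 to 0.47, adjusted p = 0.497). Without WT replicate 2 the differences were 0.24 and 0.067. The span of Il10rb overlaps that of the annotated read-through transcript Gm21970 on the same strand, and the sources used here do not say how its reads were assigned.

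Neither kinase passed in any comparison. Jak1 (chromosome 4, 101152367 to 101265282, minus strand), the kinase on IL-10Rα, stood at 14336, 11064 and 14660 normalized counts in WT, 14045, 11253 and 12653 in p47phox-/- and 9374, 11559 and 10691 in gp91phox-/-. Of the gp91phox-/- libraries, 1 lay inside the WT range and the others below it. The log2 difference was -0.34 (-0.66 to -0.01, limma adjusted p = 0.212) for gp91phox-/- and -0.07 (-0.40 to 0.25, adjusted p = 0.855) for p47phox-/-. Tyk2 (chromosome 9, 21104068 to 21131243, minus strand), the kinase on IL-10Rβ, stood at 2751, 2441 and 2709 in WT, 2641, 2003 and 2769 in p47phox-/- and 3071, 2607 and 2653 in gp91phox-/-. The genotypes overlapped, with differences of -0.10 (-0.42 to 0.21, adjusted p = 0.771) and 0.07 (-0.24 to 0.39, adjusted p = 0.830). The annotated span of an antisense gene covers most of that of Tyk2, introns included. Overlap of their exons was not measured, and the strand of the counting is not known, so mixing of their reads could not be checked.

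Stat3 (chromosome 11, 100885098 to 100939540, minus strand), the transcription factor through which the receptor acts, passed in no comparison. It stood at 21707, 17840 and 21018 normalized counts in WT, 20944, 17565 and 21419 in p47phox-/- and 18568, 19241 and 18033 in gp91phox-/-. All 3 genotypes overlapped. The log2 differences from WT were -0.02 (-0.30 to 0.27, limma adjusted p = 0.970) for p47phox-/- and -0.11 (-0.40 to 0.18, adjusted p = 0.688) for gp91phox-/-, and neither interval reaches a change of Stat3 as large as that of Il10.

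The responding genes did not move as a block. Socs3 (chromosome 11, 117966079 to 117970047, minus strand), the feedback inhibitor whose upstream sequence holds the TTCTTAGAA match shown above, stood at 28112, 19217 and 24602 normalized counts in WT, 30922, 35349 and 31014 in p47phox-/- and 28008, 34950 and 36213 in gp91phox-/-. All p47phox-/- libraries lay above WT, while gp91phox-/- replicate 1 fell just under the highest WT library. The log2 difference was 0.45 for p47phox-/- (0.09 to 0.81, limma adjusted p = 0.230) and 0.47 for gp91phox-/- (0.11 to 0.83, adjusted p = 0.118). The gp91phox-/- difference passed with array weights (adjusted p = 0.0355) and in DESeq2 (adjusted p = 0.0321). With WT replicate 2, the lowest library, left out, the differences were 0.30 and 0.32. Under array weights 3 of the 9 genes passed in gp91phox-/- versus WT, where 16.1% of all genes did, and under DESeq2 3 of 9, where 13.1% did.

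Nfil3 (chromosome 13, 52967209 to 52981073, minus strand), a basic leucine zipper repressor, differed between the knockouts. It stood at 5109, 4950 and 4564 normalized counts in WT, 2547, 4072 and 3614 in p47phox-/- and 6144, 6012 and 5935 in gp91phox-/-. The p47phox-/- libraries all lay below WT and the gp91phox-/- libraries all above it, and the means were 4874 ± 281 (SD, n = 3), 3411 ± 783 and 6030 ± 105. Nfil3 was 1.80-fold higher in gp91phox-/- than in p47phox-/- (log2 0.85, 0.51 to 1.19, limma adjusted p = 0.00553), a call that held under all 23 alternatives. Against WT, the p47phox-/- difference of -0.54 (-0.88 to -0.20) did not pass in limma (adjusted p = 0.128) but did in DESeq2 (adjusted p = 0.0383), which called 2 of the 9 genes and 4.72% of all genes in that comparison. It was -0.34 without p47phox-/- replicate 1 and -0.93 with replicates 2 and 3 both left out. The gp91phox-/- difference was 0.31 (-0.04 to 0.65, limma adjusted p = 0.287).

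Il4ra (chromosome 7, 125552120 to 125579474, plus strand), the chain through which IL-4 and IL-13 signal, was the most variable in WT, at 33908, 18215 and 28973 normalized counts. It stood at 23833, 30709 and 25295 in p47phox-/- and 30914, 30913 and 27664 in gp91phox-/-. All genotypes overlapped, with differences from WT of 0.02 (-0.43 to 0.46, limma adjusted p = 0.979) and 0.19 (-0.26 to 0.63, adjusted p = 0.661). These intervals are wide and leave room for a moderate change in either direction. Il2rg and Il13ra1, which pair with it, and Il13ra2, a decoy receptor of IL-13, lie on X and were listed at 0. WT replicate 2 was the lowest WT library for 8 of the 9 genes, against 33.7% of all genes tested.

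**Figure D3:**
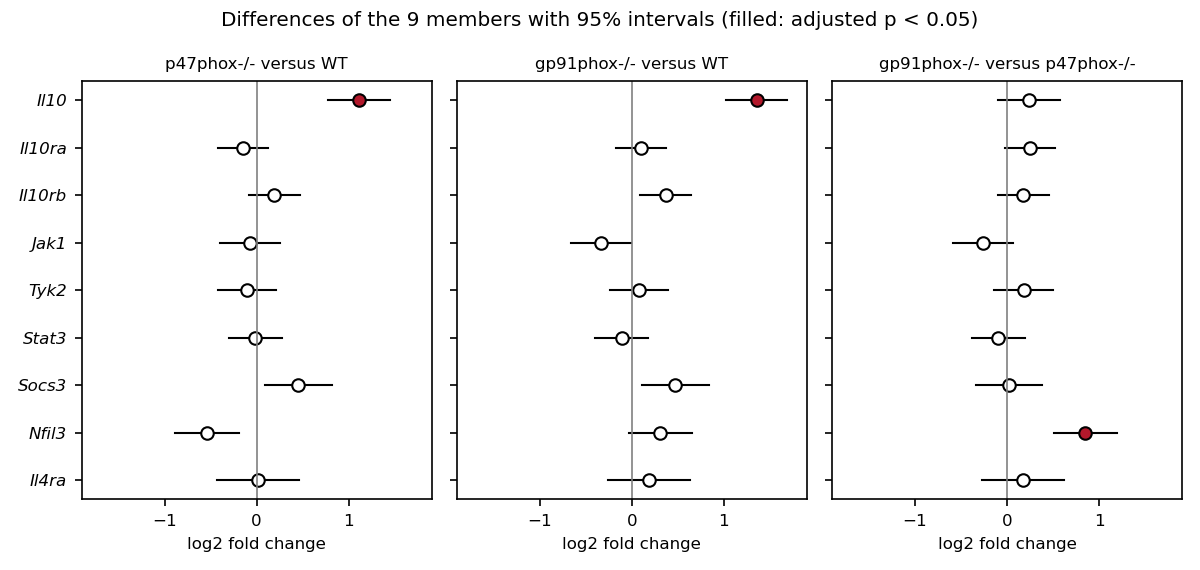
Log2 fold changes of the 9 genes with 95% intervals in the 3 comparisons, filled where the adjusted p was under 0.05. Il10 is the only gene filled against WT (1.11 and 1.35), and Nfil3 the only gene filled between the knockouts (0.85).

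Per kilobase of annotated exon, the order of levels in WT was Socs3 (mean 8294 normalized counts per kb), Il4ra (4504), Il10 (3367), Il10ra (2756), Nfil3 (2406), Stat3 (2119), Jak1 (1848), Il10rb (1183) and Tyk2 (384). The WT ranges of Il4ra and Il10 overlapped, at 3035 to 5649 and 3075 to 3795. The range of Il10 did not reach that of Il10ra (2429 to 2958). Those of Il10ra, Nfil3, Stat3 and Jak1 each overlapped with the next. Socs3, Il10rb and Tyk2 were clear of their neighbours. In both knockouts Il10 was the second highest of the set, at a mean of 7260 per kb in p47phox-/- and 8689 in gp91phox-/-, above Il4ra at 4434 and 4970.

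The genes whose pattern over the 9 libraries was most like that of Il10, by Pearson correlation of log2 values among 11197 genes with a mean of at least 50, were H2-Q7 (r = 0.981), Timd4 (0.973), Cd40 (0.968), Zfp719 (0.960), Slamf8 (0.959) and Birc3 (0.959). These values are a description, since the libraries share genotypes. Timd4 encodes TIM-4, a receptor for phosphatidylserine on resident macrophages, and went from 867 ± 87.1 (SD, n = 3) in WT to 2169 ± 343 in p47phox-/- and 2273 ± 354 in gp91phox-/-. Cd40, a costimulatory receptor, went from 2106 ± 285 to 3679 ± 552 and 4710 ± 1209. H2-Q7 belongs to a family of near-identical MHC class I genes, so its count is uncertain.

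Few of the other ligands and receptors of the IL-10 family passed the filter on low values. Of 11 listed, 4 were tested, and Il24 and Ifnl2 were at 0 in every library. Il22, a cytokine of lymphocytes that signals through IL-10Rβ, stood at 19.9, 52.9 and 39.3 normalized counts in WT, 156, 151 and 54.3 in p47phox-/- and 0.910, 3.02 and 15.2 in gp91phox-/-. It was lower in gp91phox-/- than in p47phox-/- (log2 -4.46, limma adjusted p = 0.00445). Il22ra2, the soluble antagonist of IL-22, was at 581, 1745 and 529 in WT and at 20.9, 55.5 and 85.0 in gp91phox-/-, where it fell by 4.10 (adjusted p = 0.00501, and 0.0514 without the mean-variance trend). Il20rb, a receptor chain of IL-20 and IL-24, fell in gp91phox-/- (log2 -1.54, adjusted p = 0.0480), a call lost with any single library left out but p47phox-/- replicate 2 (adjusted p 0.0527 to 0.143). The Il20rb call was also lost in 7 other settings, among them TMM scaling, quantile normalization and edgeR (adjusted p 0.0508 to 0.108). In bulk RNA, fewer cells of a type and less RNA per cell cannot be told apart. The dendritic cell markers moved with these genes, at summed levels of 4660 to 8238 in WT, 6708 to 7878 in p47phox-/- and 1700 to 2467 in gp91phox-/-. Of these 9 markers, 4 were lower in gp91phox-/- versus WT, where 4.53% of all genes were. Of the B and plasma cell markers 12 of 14 were lower there, with Pax5, Cr2 and Ms4a1 at 0 in gp91phox-/- replicate 1. The T and innate lymphoid cell markers summed to 7427 to 14445 in WT, 11822 to 13490 in p47phox-/- and 10584 to 14388 in gp91phox-/-, a sum made up mostly of Cd4. Between the knockouts, 4 of the 7 tested T and innate lymphoid markers were lower in gp91phox-/- with no overlap, where 30.9% of all genes had none. The list's median was -1.07. Il7r was called lower (log2 -0.76, limma adjusted p = 0.0407), but the call was lost with 7 single libraries left out in turn (adjusted p 0.0520 to 0.149). It was also lost in 9 other settings, among them TMM scaling, edgeR and the fit without the mean-variance trend. The part of these cells in the results was not tested.

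Among 7 other JAK and STAT genes, 1 changed in gp91phox-/- versus WT in limma, where 7.05% of all genes did. Stat4, which IL-12 activates, fell by 1.86 on the log2 scale (adjusted p = 0.00155), from 1223 to 1395 in WT to 310 to 382 in gp91phox-/-. In p47phox-/- none of the 7 passed in limma, edgeR or DESeq2, and 2 had an unadjusted p under 0.05. Of 8 other receptors that activate STAT3, Il27ra, the receptor of IL-27, fell in gp91phox-/- (log2 -1.42, limma adjusted p = 0.0397). That call was lost without WT replicate 2 or 3, p47phox-/- replicate 1 or any gp91phox-/- library (adjusted p 0.0559 to 0.148). In p47phox-/- none of these receptors passed in limma, edgeR or DESeq2, and 1 had an unadjusted p under 0.05.

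Of 15 SOCS, PIAS and phosphatase genes that restrain JAK and STAT signalling, 2 rose in gp91phox-/-, where 2.53% of all genes did. Socs1, the inhibitor of interferon receptors, stood at 313, 245 and 245 normalized counts in WT and 369, 942 and 869 in gp91phox-/- (log2 1.33, limma adjusted p = 0.0355). Ptpn2, a phosphatase of JAK1 and STAT proteins, differed by 0.62 (adjusted p = 0.0222). Both calls were lost without any 1 of the WT libraries or without gp91phox-/- replicate 2 or 3 (adjusted p 0.0686 to 0.160 for Socs1 and 0.0537 to 0.118 for Ptpn2), and neither was called without the mean-variance trend. In p47phox-/- none passed in limma, edgeR or DESeq2, and 2 had an unadjusted p under 0.05.

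Of 19 genes listed as induced by IL-10 in macrophages, 18 were tested, and Timp1, on X, was at 0. In gp91phox-/- 4 rose over WT and none fell, with a median log2 difference of 0.21, where 2.53% of all genes rose and 4.53% fell. They were Lilrb4a (0.68), an inhibitory receptor, Fcgr1 (0.65), the high-affinity IgG receptor, Il1rn (0.61), the IL-1 receptor antagonist, and Zfp36 (0.52), which destabilizes cytokine mRNA. None of these 4 calls held through the removal of each library in turn: without WT replicate 2, gp91phox-/- replicate 2 or gp91phox-/- replicate 3 the count was 0, without WT replicate 1 or 3 it was 1, and without p47phox-/- replicate 1 or 3 it was 2. It was also 0 without the mean-variance trend. In p47phox-/- 1 rose and 1 fell, with a median of 0.22, where 0.625% of all genes rose and 0.5% fell. Cd163, the haemoglobin scavenger receptor, was at 10980, 10011 and 11865 normalized counts in WT and 24623, 15411 and 26969 in p47phox-/- (log2 0.99, limma adjusted p = 0.0288). It was not called without any 1 WT library, without p47phox-/- replicate 1 or without p47phox-/- replicate 3 (adjusted p 0.0610 to 0.125). Ddit4, an inhibitor of mTORC1, fell from 3064, 3220 and 2341 to 1381, 1581 and 1474 (log2 -0.95, adjusted p = 0.00945). With p47phox-/- replicates 2 and 3 both left out, or without the mean-variance trend, neither was called (adjusted p of Ddit4 0.120 and 0.0649). Cd163 and Fcgr1 also stand among the macrophage markers.

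Of 24 genes listed as repressed by IL-10 in macrophages, 13 were higher in gp91phox-/- than in WT and none lower. Over all genes, 2.53% were higher and 4.53% lower. The list's median log2 difference was 1.15. edgeR gave the same count of 13 and 0 (390 and 583 of all 14404 genes). DESeq2 gave 16 and 0 (769 and 1002 of all 13529 genes). The 6 furthest were Nos2 (3.96), the inducible nitric oxide synthase, Il1a (2.33), Ptgs2 (2.24), which makes prostaglandins, Csf3 (1.92), Il1b (1.55) and Cxcl10 (1.43), a chemokine induced by interferon. Il1b stood at 25126, 28169 and 26070 normalized counts in WT, 21714, 34221 and 19032 in p47phox-/- and 59038, 77117 and 100791 in gp91phox-/-, so all gp91phox-/- libraries were the highest. Nos2 ranged from 68.3 to 95.3 in WT and was at 289, 1723 and 4513 in gp91phox-/-. Without the mean-variance trend 8 of the 13 were called, and the lost calls included Nos2 (adjusted p = 0.0549) and Csf3 (0.0731). With each single library left out the count was 9 to 14, and 9 genes stayed called each time. Csf3 lost its call, at an adjusted p of 0.0526 to 0.0744, when WT replicate 1, WT replicate 3, gp91phox-/- replicate 2 or gp91phox-/- replicate 3 was left out.

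In p47phox-/- 5 of these 24 rose over WT and 1 fell, with a median of 0.27, where 0.625% of all genes rose and 0.5% fell. Cxcl1, a neutrophil chemokine, was at 5761, 4975 and 4155 normalized counts in WT and 14349, 17114 and 12365 in p47phox-/- (log2 1.56, limma adjusted p = 0.00756). Ccl2 (1.43), Il1a (1.16), Tnf (1.02) and Cxcl2 (0.93) were the others that rose. Ccl5, a chemokine for T cells, fell from 2650, 3485 and 2847 to 678, 682 and 755 (log2 -2.08, adjusted p = 0.00783). edgeR called 2 higher and 1 lower (69 and 64 of all 14404 genes), and DESeq2 7 higher and 1 lower (344 and 334 of all 14366). Cxcl1 and Ccl5 stayed called with each single library left out. Ccl2, Il1a, Tnf and Cxcl2 were all lost without WT replicate 2, WT replicate 3 or p47phox-/- replicate 3, and the number that rose was 2 without WT replicate 1, p47phox-/- replicate 2 or gp91phox-/- replicate 2 and 3 without p47phox-/- replicate 1. With p47phox-/- replicates 2 and 3 both left out, none of the 24 was called in limma. None was called without the mean-variance trend either, with adjusted p of 0.0701 for Cxcl1 and 0.0742 for Ccl5. The immediate-early genes, which cell isolation can raise, were higher in gp91phox-/- versus WT for 4 of 16 (Btg2, Egr2, Fosb and Ier3), where 2.53% of all genes were. Of these calls, those of Btg2 and Egr2 held with each library left out in turn. Fosb lost its call with 7 single libraries left out in turn (adjusted p 0.0642 to 0.152) and Ier3 without gp91phox-/- replicate 3 (0.0517). Neither was called without the mean-variance trend. The list summed to 311974 to 517409 in WT, 353552 to 517651 in p47phox-/- and 436045 to 782338 in gp91phox-/-. The fibroblast and smooth muscle markers summed to 7005 to 9196, 11953 to 18591 and 10062 to 12121, in the same order. The monocyte markers summed to 15908 to 22548, 24625 to 38144 and 22979 to 29918, a sum led by F13a1. It was the only 1 of the 6 called in p47phox-/- (log2 0.98, limma adjusted p = 0.0289), while the differences of Ccr2 (-0.42) and Vcan (-1.54) did not pass. F13a1 was not called without any 1 WT library or without p47phox-/- replicate 1 or 3 (adjusted p 0.0610 to 0.125). Its call was also lost with quantile normalization and without the mean-variance trend. The part of these signals in the differences of Il10 and of its targets was not tested.

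**Figure D4:**
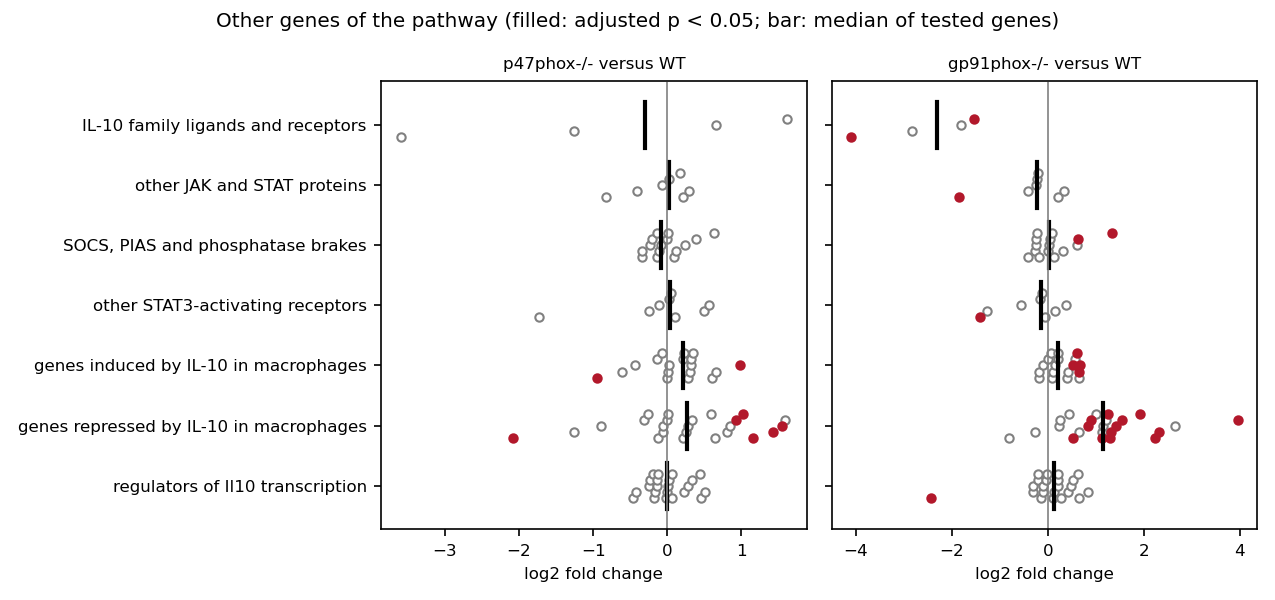
Log2 fold changes versus WT of the tested genes in the 7 pathway lists, filled where the adjusted p was under 0.05, with a bar at each list's median (each panel has its own x range). The list of genes repressed by IL-10 has 13 filled points above 0 in gp91phox-/- and 5 above and 1 below 0 in p47phox-/-.

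Of 22 regulators of Il10 transcription, 1 changed in gp91phox-/- versus WT in limma, where 7.05% of all genes did. Ets1, a transcription factor abundant in lymphocytes, fell in gp91phox-/- (log2 -2.44, adjusted p = 0.00124), from 3078, 6355 and 4498 normalized counts in WT to 580, 1604 and 594. DESeq2 called 6 higher and 1 lower in gp91phox-/-, where it called 13.1% of all genes. In p47phox-/- none passed in limma or edgeR, 1 was higher in DESeq2, and 4 had an unadjusted p under 0.05. Maf, a direct activator of Il10 that was singled out after its values were seen, stood at 3881, 4021 and 4217 in WT, 5424, 3399 and 7104 in p47phox-/- and 9636, 6286 and 6259 in gp91phox-/-. All gp91phox-/- libraries lay above WT, but the difference of 0.84 did not pass (limma adjusted p = 0.0544), and p47phox-/- overlapped WT (0.33, adjusted p = 0.538). That position was not particular to Maf. In gp91phox-/-, 10 of the 22 regulators lay wholly above WT and 1 wholly below, where 33.3% of all genes had no overlap.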

How the data were processed

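RNA of the 9 libraries was sequenced as paired-end reads. Per the labels' protocols, reads were trimmed with Cutadapt, mapped to mm10 with STAR 2.5.2b and counted with featureCounts, and DESeq2 is named in the submitters' processing notes. Strand and annotation of the counting are not given in the sources used here. The authors deposited normalized counts, a signal equal to reads divided by a size factor per library, from which 100% of values gave whole reads (tolerance 0.01). Library depth is given in the report.

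Values were transformed to log2(normalized count + 1), the scale of all fold changes. A gene was kept where 3 or more libraries reached 10 normalized counts, and limma 3.58.1 (R 4.3.3) was applied in 1 fit of the 3 genotypes with a mean-variance trend and Benjamini-Hochberg adjustment over all genes kept, with a call at an adjusted p under 0.05. edgeR 4.0.16 and DESeq2 1.42.0 were run on the recovered reads as alternatives, beside other pseudocounts, filters, scalings and left-out libraries. Both knockouts were compared with the same WT libraries. Same-numbered libraries did not deviate together (correlations -0.040 to 0.076 over 9 pairs). On simulated data, 2-fold changes were recovered in 52.7%, 53.8% and 47.4% of cases and 4-fold changes in 94.5%, 83.0% and 79.6%, for p47phox-/- versus WT, gp91phox-/- versus WT and gp91phox-/- versus p47phox-/- (14002, 13969 and 13997 genes). In the same order, 9 of 160, 4 of 139 and 13 of 141 calls were false. The changed genes were drawn only from those with a mean of at least 50, so recovery of scarcer genes was not measured.

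The members, lists and alternatives were chosen with earlier results of these data known. All 9 members are named. From each list, called genes are named, up to 6 per comparison by size of change, and the 6 genes most like Il10. Positions and exon lengths come from GENCODE on GRCm38. Some genes of the lists are not reported here, and the lists' counts leave them out. A search for a receptor motif in protein sequences was not run.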

Additional observations from a re-analysis of the deposited data

Results flagged for a closer look

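The difference between the knockouts' effects was tested directly as gp91phox-/- versus p47phox-/- in limma, where 9.93% of all genes passed an adjusted p of 0.05. Of the 9 members and the pathway lists, genes that passed are given below with their log2 difference. From the list of genes repressed by IL-10, only those with the largest differences are given in this way. Among the 9 members, Nfil3 (log2 0.85) passed. This repressor lay below WT in all p47phox-/- libraries and above it in all gp91phox-/- libraries. Among the genes repressed by IL-10, gp91phox-/- was higher for Nos2 (5.21), Ptgs2 (2.22), Ccl5 (1.81), Il1b (1.67), Cxcl10 (1.49) and Il1a (1.17). In that list 8 of 24 were higher and 1 lower, where 3.97% of all genes were higher and 5.96% lower. Of the list's calls, 7 held with each library left out in turn. With p47phox-/- replicates 2 and 3 both left out, 4 were called higher and 0 lower, and without the mean-variance trend 5 and 0, with Il1a (adjusted p = 0.0617) among those lost. The lower gene, Cxcl1, was lost in both (adjusted p = 0.112 and 0.0558). Among the genes induced by IL-10, Il1rn (1.04), Ddit4 (0.84) and Fcgr1 (0.62) were higher in gp91phox-/- and Bcl3 (-0.58), a nuclear partner of NF-κB, was lower. Of other signalling genes, Stat4 (-1.04), Il27ra (-1.92) and Pias4 (-0.51), an inhibitor of STAT proteins, were lower. In the IL-10 family, Il22 (-4.46), Il22ra2 (-2.84) and Il20rb (-2.20) were lower. Of the regulators of Il10, Fos (0.70) was higher, and Ets1 (-2.21) and Nfkb1 (-0.58), the p105 precursor of NF-κB, were lower.

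Nfil3, Ddit4, Il22, Nos2, Ptgs2, Il1b, Cxcl10 and Ets1 were called under all 23 alternatives. Of the genes given above with a log2 difference, 7 lost the call with 1 library left out. Nfkb1 lost it without any library but gp91phox-/- replicate 3 (adjusted p up to 0.133), and Stat4 without any but WT replicate 2 and p47phox-/- replicate 3 (up to 0.119). Fcgr1 (up to 0.0887), Bcl3 (0.0971) and Pias4 (0.105) lost it without any gp91phox-/- library, and also without p47phox-/- replicate 1 or 3 for Fcgr1, 2 or 3 for Bcl3 and 3 for Pias4. Il22ra2 (0.107) lost it without replicate 1 or 2 of either knockout, and Fos (0.0699) without p47phox-/- replicate 1 or gp91phox-/- replicate 1 or 2. None of these 7 was called without the mean-variance trend. Among other settings, Nfkb1 was also lost with TMM scaling, array weights, the replicate block and edgeR. Bcl3 was lost with the replicate block and edgeR, and Pias4 with the replicate block. With p47phox-/- replicates 2 and 3 both left out, Il1rn (adjusted p = 0.0820), Il27ra (0.102), Il20rb (0.124), Il1a (0.156) and Ccl5 (0.0709) were also not called.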

How the results depend on the processing

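The replicate block gave 127, 877 and 1238 called genes for p47phox-/- versus WT, gp91phox-/- versus WT and gp91phox-/- versus p47phox-/-, against 162, 1016 and 1430 without it, and changed the call of none of the 9 members (Il10 adjusted p = 0.0156 and 0.000695, Nfil3 between the knockouts 0.00892). With the mean-variance trend omitted, 52, 596 and 898 genes were called, and the p47phox-/- difference of Il10 kept its size (1.11) but not its call (adjusted p = 0.0610), leaving 0 members. DESeq2 called 678, 1771 and 2276 genes, and 2 and 3 members against WT: beside Il10 these were Nfil3 in p47phox-/- (-0.53), and Il10rb (0.38) and Socs3 (0.48) in gp91phox-/-. Array weights called 2319 genes and 3 members in gp91phox-/- versus WT (Il10rb 0.35, Socs3 0.48). Fitting only the groups compared called 101 genes in p47phox-/- versus WT. Leaving out p47phox-/- replicates 2 and 3, an alternative chosen after seeing the data, left 16 genes and 0 members in p47phox-/- versus WT (Il10 1.19, adjusted p = 0.109) and 441 genes between the knockouts. Uncalled differences near 0 changed sign in p47phox-/- versus WT: Jak1 to 0.084, Tyk2 to 0.0056 and Stat3 to 0.058 without those replicates, Stat3 to 0.014 with array weights, and Il4ra to -0.0045 (TMM), -0.0025 (DESeq2 size factors), -0.026 (quantile normalization), -0.10 (array weights), -0.045 (edgeR), -0.042 (DESeq2) and -0.13 (without those replicates). Socs3 between the knockouts went to -0.057 with quantile normalization. With each library left out in turn, called genes ranged from 47 to 235, 520 to 1543 and 761 to 1661, members called stayed at 1 in each comparison, and the members whose sign changed ranged, for p47phox-/- versus WT, from -0.20 to 0.0089 (Jak1), -0.19 to 0.040 (Tyk2), -0.10 to 0.074 (Stat3) and -0.24 to 0.20 (Il4ra), for gp91phox-/- versus WT from -0.00015 to 0.12 (Tyk2) and -0.073 to 0.37 (Il4ra), and between the knockouts from -0.049 to 0.14 (Socs3). The causes were not tested. Over members, comparisons and alternatives, 588 fold changes kept direction and call, 26 changed sign, 5 gained the call and 2 lost it. At least 2278 reads lay behind every value of the members, while Il22 stood at 0.910 to 156 normalized counts. The effect of depth was not tested.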
